A study of Mus musculus with 9 samples.

Results

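Midkine (Mdk) and pleiotrophin (Ptn) were examined together with 2 of their receptors, the receptor tyrosine phosphatase Ptprz1 and the heparan sulfate proteoglycan syndecan-3 (Sdc3). All probe sets whose gene symbol in the platform annotation was one of these names were taken, which gave 10 probe sets for 4 genes, of 18193 genes measured with 1 symbol each. The 4 genes were chosen with group differences on these same arrays in view, so their differences are described here and carry no test. The data were 9 Affymetrix arrays, with 3 arrays for each of 3 kinds of cells grown in low-attachment dishes in a DMEM and Neurobasal medium with N2, B27, 20 ng/ml FGF and 20 ng/ml EGF. Glioma stem cells had been cultured from optic gliomas of C57BL/6 mice aged 3 months, with the genotype Nf1+/-GFAP CKO, which the labels do not spell out further. The Nf1-null neural stem cells (NSC) were from third-ventricle tissue of C57BL/6 pups (postnatal day 1) with floxed Nf1 alleles (Nf1flox/flox) and were given a Cre virus. Wild-type NSC were cells of the same origin and genotype that had received a control LacZ virus, so their floxed alleles were intact and the name refers to Nf1 function. Independent cultures are stated for the NSC, whereas separate tumours are not stated for the 3 glioma stem cell arrays, so the spread between arrays may be technical in part. Tumour origin, age, tissue, virus and genotype separated the glioma stem cells from both NSC groups together, and the parts these play cannot be told apart.

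Midkine and pleiotrophin are the 2 members of a family of small secreted, heparin-binding growth factors. Ptprz1 carries chondroitin sulfate chains that bind both factors, and binding of pleiotrophin lowers the phosphatase activity of the receptor, which raises tyrosine phosphorylation of its substrates. A secreted form of Ptprz1 that lacks the phosphatase domains, phosphacan, is part of the brain matrix. Syndecan-3 binds both factors through its heparan sulfate chains, and both ligands and Ptprz1 are typical of radial glia, neural stem cells and glial precursors of the developing brain.

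RefSeq start-site sequences on the mouse build GRCm38.p6 were at hand for 3 of the 4 genes, all but Mdk. Those of Ptn and Ptprz1 are shown, since this ligand and its receptor gave bright signals in all 3 groups. Each runs 5′ to 3′ along the strand of its gene, from 250 bases before the start to 50 bases after it. Capitals mark matches to GGGCGG (the GC box), TATAAA or CCAAT on either strand. The stretch of Ptn lies on the minus strand at chr6:36810130-36810429 and that of Ptprz1 on the plus strand at chr6:22875252-22875551.
Ptn: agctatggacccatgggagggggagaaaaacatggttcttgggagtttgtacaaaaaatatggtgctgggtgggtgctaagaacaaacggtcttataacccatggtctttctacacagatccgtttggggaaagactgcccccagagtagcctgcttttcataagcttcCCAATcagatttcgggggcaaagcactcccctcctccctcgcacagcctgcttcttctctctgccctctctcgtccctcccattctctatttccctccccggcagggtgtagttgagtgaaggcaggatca
Ptprz1: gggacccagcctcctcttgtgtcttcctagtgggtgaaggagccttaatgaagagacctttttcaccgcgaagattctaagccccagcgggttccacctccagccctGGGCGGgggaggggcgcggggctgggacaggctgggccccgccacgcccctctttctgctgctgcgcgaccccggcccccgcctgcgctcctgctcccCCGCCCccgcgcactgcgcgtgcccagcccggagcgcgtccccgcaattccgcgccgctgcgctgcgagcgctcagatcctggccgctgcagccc
The Ptn stretch held 52.0% G and C, 6 CpG dinucleotides, 1 CCAAT match and no GC box. That of Ptprz1 held 71.7% G and C, 29 CpG and 2 GC boxes, and that of Sdc3 (plus strand, chr4:130792287-130792586) held 77.7% G and C, 44 CpG and 3 GC boxes. Among 32851 stretches of 300 bases in the same table, 35.7% held a GC box, 13.6% TATAAA and 37.4% CCAAT, with a median of 7 CpG and of 52.7% G and C. Ptn was near these medians, and Ptprz1 and Sdc3 lay above both. A match describes letters in the window and says nothing of binding.

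Values are probe set signals on a linear scale that has a common mean on every array, and differences are between group means of log2(signal + 1). Array medians were close, at 264.7 to 287.4. Nf1, the gene removed by Cre, had signals of 548.9 to 622.6 in glioma stem cells, 430.3 to 645.8 in Nf1-null NSC, against 919.5 to 1139.5 in wild-type NSC, so every wild-type array was above every other array. Markers of neural stem cells and radial glia were bright as a sum over 9 genes in all groups. This sum was 239914 to 286566 in glioma stem cells and 255297 to 288992 in Nf1-null NSC. It was 253744 to 342524 in wild-type NSC. The sum leans on its brightest gene, Fabp7, at up to 103504.8 in glioma stem cells. By gene, Slc1a3 and Msi1 were below their wild-type NSC levels in the glioma cultures (adjusted p under 0.05 in limma). The other 7 did not pass, and 3 of the 9 had a positive difference (median log2 -0.467). Against Nf1-null NSC none passed, and 4 of the 9 were positive (median log2 -0.067). Microglial and endothelial lists of 9 genes each summed to no more than 1178 and 1728 on any array, with no marker at 0. Glioma stem cell array 1 stood apart from its group, with correlations across the 9097 brighter genes of 0.950 and 0.944 with arrays 2 and 3, which correlated at 0.989. Values without it are given for each probe set of the 4 genes, and for other genes whose differences are given where it changed a call or moved the difference by over 1.5 times. Whether equal replicate numbers join arrays of different groups is covered with the processing.

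Midkine was low in glioma stem cells and at similar levels in both NSC groups. The probe set of Mdk (1416006_at) had signals of 435.2, 347.8 and 177.6 in glioma stem cells (arrays 1 to 3), 1731, 2080.9 and 2278.4 in Nf1-null NSC, against 1559.7, 1936.3 and 1809.8 in wild-type NSC. The highest glioma stem cell array was thus below all 6 NSC arrays, while both NSC groups overlapped. Group means were 320 ± 131 in glioma stem cells, 2030 ± 277 in Nf1-null NSC and 1769 ± 192 in wild-type NSC (SD, n = 3 each). The level in glioma stem cells was 6.71-fold lower than in Nf1-null NSC, a log2 difference of -2.75 with a standard error of 0.33. Against wild-type NSC it was 5.86-fold lower, with a log2 difference of -2.55 and the same error of 0.33. Between the NSC groups the log2 difference (Nf1-null minus wild-type) was 0.20 with an error of 0.33. Nf1-null NSC were the higher of each same-numbered pair of NSC arrays, by 0.15, 0.10 and 0.33 on the log2 scale. The error of 0.33 is pooled over all 3 groups and does not use these pairs, so it is not the spread of the NSC alone. In order of level, Nf1-null and wild-type NSC were thus neighbours with overlapping signals, and glioma stem cells were below both.

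Leaving out any 1 of the 9 arrays moved the midkine difference over a range of -3.02 to -2.37 against Nf1-null NSC and of -2.82 to -2.18 against wild-type NSC. The lower ends came without glioma stem cell array 1, whose midkine signal was the highest of its group. Midkine was measured by a single probe set, so no other probe set checks it. In these cultures fewer cells that make a transcript and less transcript per cell cannot be told apart. Marker lists of other cell types differed between groups in both directions. The mural and fibroblast list of 9 genes summed to 984 to 1242 in glioma stem cells, 1986 to 2840 in Nf1-null NSC, against 1998 to 2527 in wild-type NSC, and 2 of its 9 genes (Acta2 and Myl9) fell against either NSC group. The other 7 genes did not pass, and 4 of the 9 had a positive difference in each of these comparisons, so the lower sum came mainly from Acta2 and Myl9. The ependymal list of 8 genes summed to 671 to 1113 in glioma stem cells, 2038 to 3638 in Nf1-null NSC, against 2678 to 4486 in wild-type NSC. Of its 8 genes, 1 fell against Nf1-null NSC and 4 against wild-type NSC. The Schwann and neural crest list, 7 measured genes, had a higher sum, at 14064 to 23106 in glioma stem cells, 7336 to 13432 in Nf1-null NSC, against 6812 to 9782 in wild-type NSC. Of its 7 genes, Cdh19 rose against wild-type NSC, and none passed against Nf1-null NSC. Not all went up, since 4 of the 7 had a positive difference against wild-type NSC (median log2 0.255) and 5 against Nf1-null NSC (0.866). The neuron list of 9 genes summed to 40154 to 47743 in glioma stem cells, 45239 to 47303 in Nf1-null NSC, against 53974 to 63376 in wild-type NSC. Of its 9 genes, Tubb3 rose in glioma stem cells against Nf1-null NSC, and Rbfox3, Snap25 and Slc17a6 fell against wild-type NSC. In each of these comparisons 4 of the 9 had a positive difference. No gene of these 4 lists was at 0, and the part of such cells in the midkine difference was not tested.

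**Figure D1:**
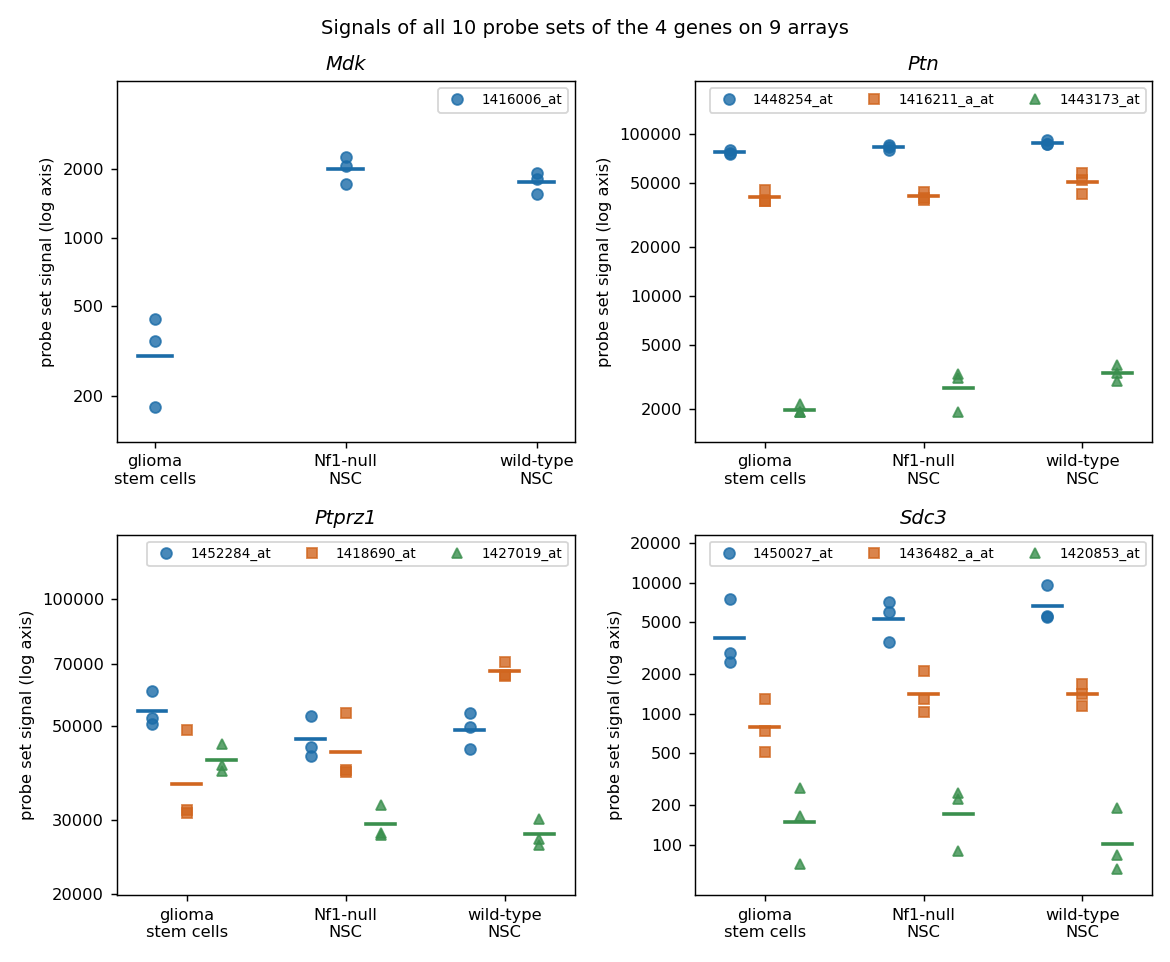
Signals of all 10 probe sets of Mdk, Ptn, Ptprz1 and Sdc3 on log axes, by group. Points are single arrays, 3 per group, and bars are means taken on the log2 scale. The Mdk signals of glioma stem cells, 177.6 to 435.2, lie below all NSC signals, 1559.7 to 2278.4, and the 3 probe sets of Ptprz1 order the groups in different ways.

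Pleiotrophin, the other ligand, was bright in every culture and differed little between groups. The brightest probe set of Ptn (1448254_at) had signals of 79993.7, 76444.5 and 75186.5 in glioma stem cells, 82717.8, 79432.2 and 86236.9 in Nf1-null NSC, against 86404.8, 86998.3 and 92236 in wild-type NSC. Every glioma stem cell array and every Nf1-null array was below every wild-type array, by narrow margins, while glioma stem cells and Nf1-null NSC overlapped. The log2 difference was -0.10 against Nf1-null NSC and -0.20 against wild-type NSC for glioma stem cells, and -0.10 for Nf1-null NSC against wild-type NSC, each with an error of 0.14. The median over all genes was -0.04, -0.09 and -0.06 in the same 3 comparisons, so part of these small differences was shared by genes at large. With quantile normalization the differences against wild-type NSC were -0.11 for glioma stem cells and -0.04 for Nf1-null NSC.

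Both other Ptn probe sets gave the same sign in all 3 comparisons. Probe set 1416211_a_at had signals of 38475.6, 38716.6 and 45045.2 in glioma stem cells, 40476.9, 39371.5 and 43971.7 in Nf1-null NSC, against 52040.8, 57725.7 and 42573.2 in wild-type NSC. Wild-type array 3 was low here and overlapped with the other groups, and the log2 differences were -0.02, -0.31 and -0.29. The dimmer probe set 1443173_at had signals of 1919, 1911.3 and 2148.1 in glioma stem cells, 3113.2, 1920.3 and 3281.3 in Nf1-null NSC, against 3730.5, 3332.8 and 2978.6 in wild-type NSC. On this probe set glioma stem cells lay below wild-type NSC without overlap, 1.68-fold lower (log2 -0.74), and Nf1-null array 2 sat with the glioma stem cells. Over the mean of its 3 probe sets Ptn differed by -0.19, -0.42 and -0.23, so the size of the pleiotrophin difference depended on the probe set while its sign did not. Without glioma stem cell array 1 the brightest probe set gave -0.13 against Nf1-null NSC and -0.22 against wild-type NSC, 1443173_at gave -0.41 and -0.72, and 1416211_a_at gave 0.02 and -0.27, the first with its sign turned.

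Ptprz1, the phosphatase receptor, gave opposite answers on different probe sets. The brightest of them (1452284_at) had signals of 60447.6, 52210.3 and 50555.5 in glioma stem cells, 42550.3, 44724 and 52864.2 in Nf1-null NSC, against 53577.6, 44193.7 and 49724.7 in wild-type NSC. All 3 groups overlapped, with log2 differences of 0.22 for glioma stem cells against Nf1-null NSC, 0.15 against wild-type NSC, and -0.08 for Nf1-null NSC against wild-type NSC. Without glioma stem cell array 1 the first 2 of these were 0.14 and 0.07.

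Probe set 1418690_at was lower in glioma stem cells and in Nf1-null NSC than in wild-type NSC. Its signals were 48992.7, 31148.4 and 31629.9 in glioma stem cells, 39351.6, 38844.4 and 53671.1 in Nf1-null NSC, against 65847.1, 65821.5 and 70937.5 in wild-type NSC. All wild-type arrays lay above all others, while glioma stem cells and Nf1-null NSC overlapped. Glioma stem cells were 1.85-fold lower than wild-type NSC (log2 -0.89) and Nf1-null NSC were 1.55-fold lower than wild-type NSC (log2 -0.64), each with an error of 0.24. The glioma stem cell differences were -0.47 against Nf1-null NSC and -1.10 against wild-type NSC without glioma stem cell array 1, beside -0.26 and -0.89 with it.

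Probe set 1427019_at ran the other way. Its signals were 45456, 40387 and 39160.7 in glioma stem cells, 28004.8, 27656.2 and 32517.1 in Nf1-null NSC, against 27047.5, 26133.7 and 30205.7 in wild-type NSC. Every glioma stem cell array was above every NSC array, and both NSC groups overlapped. Glioma stem cells were 1.42-fold higher than Nf1-null NSC (log2 0.50) and stood 0.58 above wild-type NSC on the log2 scale, each with an error of 0.16. These were 0.44 and 0.52 without glioma stem cell array 1.

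The unequal change of these 2 probe sets was visible on each array. Relative to the wild-type mean of each probe set, the log2 signal of 1427019_at minus that of 1418690_at was 1.17, 1.66 and 1.59 in glioma stem cells, 0.79, 0.80 and 0.56 in Nf1-null NSC, against 0, -0.05 and 0.05 in wild-type NSC. Of the 3 Ptprz1 probe sets, these 2 had the highest (0.58) and lowest (-0.89) log2 difference of glioma stem cells against wild-type NSC. The higher place of glioma stem cells over wild-type NSC therefore came from picking this pair and is not a separate result. The Nf1-null arrays do not enter the difference that marks out the pair, but both groups that they are set against do. By this measure the Nf1-null arrays lay above every wild-type array and below every glioma stem cell array. Their place is thus not free of the pick and is not a separate result either. Averaged over its 3 probe sets, Ptprz1 differed by -0.05 on the log2 scale against wild-type NSC in glioma stem cells. The transcripts that each probe set detects were not mapped here, so a statement on receptor or phosphacan forms cannot be made. The ratio of 3′ to 5′ Actb signal, a sign of RNA integrity and labelling, was 1.73 to 1.85 in glioma stem cells, 1.49 to 1.67 in Nf1-null NSC, against 1.87 to 1.88 in wild-type NSC, and its part was not tested.

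Levels of glial marker lists were set beside Ptprz1, which glial cells make. The astrocyte list of 9 genes summed to 123450 to 151942 in glioma stem cells, 103579 to 204278 in Nf1-null NSC, against 259523 to 304356 in wild-type NSC. Of these, 3 (Aqp4, Aldh1l1 and Gja1) fell in glioma stem cells against either NSC group. Against Nf1-null and wild-type NSC the log2 differences were -5.06 and -7.26 for Aqp4 and -6.50 and -6.66 for Aldh1l1. The other 6 did not pass, and 4 of the 9 had a positive difference against Nf1-null NSC, as S100b (2.46 on the log2 scale) and Slc1a2 (0.91) did, and 1 against wild-type NSC. The oligodendrocyte precursor list of 11 genes summed to 213855 to 221156 in glioma stem cells, 131678 to 171023 in Nf1-null NSC, against 211989 to 241845 in wild-type NSC. Of its genes, 2 (Pcdh15 and Lhfpl3) rose in glioma stem cells against Nf1-null NSC, where all 11 had a positive difference. None passed against wild-type NSC, where 5 of the 11 were positive (median log2 -0.199). Nf1-null NSC were the low group of this list, with 0 of the 11 positive against wild-type NSC (median log2 -1.763). The myelinating oligodendrocyte list of 8 genes summed to 28688 to 101619 in glioma stem cells, 20542 to 46250 in Nf1-null NSC, against 44515 to 73291 in wild-type NSC, overlapping in each comparison with glioma stem cells. Of its 8 genes, Opalin fell against Nf1-null NSC and none passed against wild-type NSC. Opalin went against most of its list, since 5 of the 8 had a positive difference against Nf1-null NSC (median log2 1.11). Against wild-type NSC 4 of the 8 were positive (median log2 0.276). No marker of these 3 lists was at 0, and their part in the Ptprz1 signals was not tested.

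Sdc3, the syndecan of the set, varied more within groups than between them. Its brightest probe set (1450027_at) had signals of 7561.3, 2913.3 and 2469.3 in glioma stem cells, 7099.7, 3528.6 and 5999.2 in Nf1-null NSC, against 9527.6, 5557.5 and 5493.2 in wild-type NSC. The array numbered 1 was the highest in each group, and all groups overlapped. The log2 difference was -0.49 against Nf1-null NSC and -0.81 against wild-type NSC for glioma stem cells, and -0.32 for Nf1-null NSC against wild-type NSC, with an error of 0.48. Single arrays set much of this. Without glioma stem cell array 1 the glioma differences were -0.99 and -1.30, and over all arrays left out in turn they ranged over -0.99 to -0.18 against Nf1-null NSC and -1.30 to -0.50 against wild-type NSC.

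A second Sdc3 probe set (1436482_a_at) had signals of 1302, 734.5 and 509.9 in glioma stem cells, 2121.6, 1025.2 and 1286.8 in Nf1-null NSC, against 1702.2, 1155.7 and 1419.4 in wild-type NSC. Here too array 1 was the highest of each group and the groups overlapped, with log2 differences of -0.84, -0.84 and 0.00. The first 2 were both -1.20 without glioma stem cell array 1. The third, 1420853_at, was dim, with signals of 273.6, 166.8 and 71.7 in glioma stem cells, 225.7, 89.5 and 247.1 in Nf1-null NSC, against 84, 66.1 and 191.7 in wild-type NSC, and its groups overlapped as well. Its log2 differences were -0.20 for glioma stem cells against Nf1-null NSC, 0.54 against wild-type NSC, and 0.74 for Nf1-null NSC against wild-type NSC, each with an error of 0.64. The signs of the last 2 were thus not those of the brightest Sdc3 probe set. Without glioma stem cell array 1 the first 2 were -0.64 and 0.10, and without array 3 the first was 0.32. Over the mean of its 3 probe sets Sdc3 differed by -0.51, -0.37 and 0.14, so the sign between the NSC groups depended on the probe sets used.

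**Figure D2:**
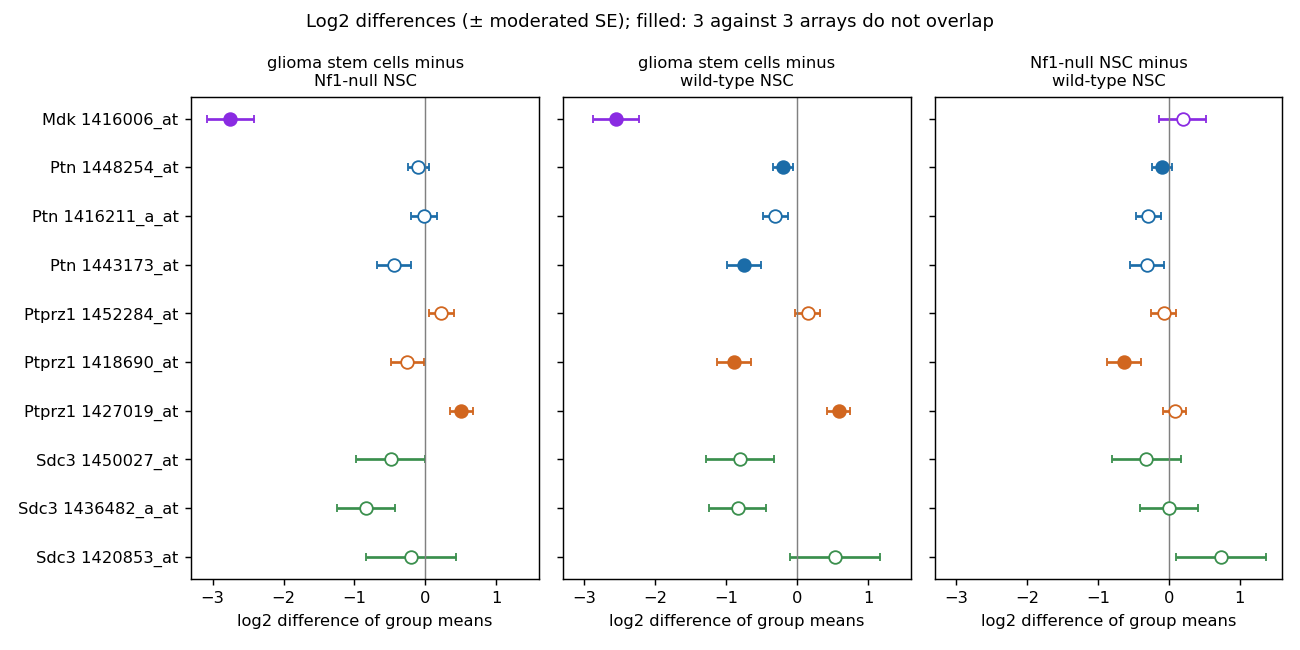
Log2 differences of group means for each of the 10 probe sets, with moderated standard errors as bars, in the 3 comparisons. Filled symbols mark probe sets whose 3 against 3 arrays do not overlap. Mdk stands at -2.75 and -2.55 in the glioma stem cell comparisons and at 0.20 between the NSC groups, and the Ptprz1 probe sets fall on both sides of 0.

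Over all 10 probe sets, 1 was lower and 1 higher without overlap in glioma stem cells against Nf1-null NSC, and 4 were lower and 1 higher against wild-type NSC. Between the NSC groups, 2 were lower without overlap and none higher. For reference, 12.7% of all genes were lower and 9.24% higher without overlap in glioma stem cells against Nf1-null NSC, 20.9% lower and 13.9% higher against wild-type NSC, and 14.1% lower and 9.75% higher in Nf1-null against wild-type NSC. These shares are of genes by their brightest probe set, and the 10 probe sets share 4 genes. Since the genes were selected on these contrasts, nothing is read from the counts. The glioma stem cell arrays enter 2 of the comparisons and each NSC group enters 2, so the comparisons share arrays.

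Genes were ranked by how near their centred log2 signals over the 9 arrays lay to those of each member, as the root mean square difference, among 8855 named genes of at least median brightness. Mdk did not lie close to any other member. Mdk lay 1.23 from Ptn, 1.37 from Ptprz1 and 1.08 from Sdc3, against a median of 1.30 between Mdk and the 8855 genes. Ptn and Ptprz1 were 0.187 apart, against medians of 0.283 for Ptn and 0.32 for Ptprz1, both being nearly flat by their brightest probe sets. Sdc3 lay 0.565 from Ptn and 0.613 from Ptprz1, a little under its median of 0.661.

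Nearest to Mdk were Peg3, an imprinted zinc finger gene, at 0.287 and Afap1, an actin filament-associated adaptor, at 0.289. Then came the chemokine receptor gene Cxcr4 at 0.347, the homeobox gene Emx2 at 0.373 and Mmp14, a membrane-anchored metalloproteinase, at 0.379. Peg3 signals were 11092.3, 6837.7 and 3925.5 in glioma stem cells, 40877.1, 38697.8 and 38932.9 in Nf1-null NSC, against 32290.1, 24661.9 and 29536 in wild-type NSC. As with Mdk, the glioma stem cell arrays were below all NSC arrays and array 3 was the lowest of them. Cxcr4 signals were 621, 289.4 and 262.8 in glioma stem cells, 3342.3, 3049.8 and 3673.4 in Nf1-null NSC, against 3010.1, 2752.8 and 2158.9 in wild-type NSC.

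**Figure D3:**
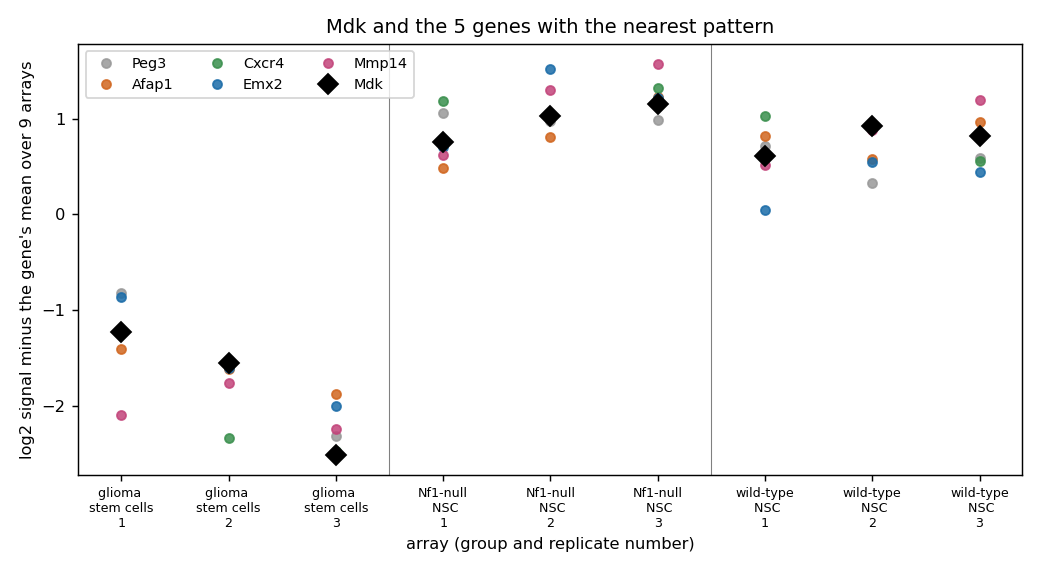
Centred log2 signals of Mdk (diamonds) and of the 5 genes nearest to it in pattern, on each of the 9 arrays. All 6 genes are below their own mean on the 3 glioma stem cell arrays and above it on the 6 NSC arrays, and the nearness was used to pick them.

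Nearest to Ptn were Gtf2b at 0.0418, Brk1, Aup1, Sharpin and Psmb1 at 0.0579, against a median of 0.283. Nearest to Ptprz1, by its brightest probe set, were Mblac1 at 0.0709, Ermard, Olig1 at 0.0877, Bnip1 and Arhgef11 at 0.0963, against a median of 0.320. Nearest to Sdc3 were Tyro3 at 0.166, Hes6 at 0.221, Garem2 at 0.223, Ildr2 at 0.236 and Prr18 at 0.243, against a median of 0.661. Tyro3, which encodes a receptor tyrosine kinase, had signals of 1913, 877.3 and 886.8 in glioma stem cells, 2660.3, 971.9 and 1822.5 in Nf1-null NSC, against 2869, 1593.9 and 1739.4 in wild-type NSC, again with array 1 the highest in each group. A flat gene has many near neighbours, so the distances of Ptn and Ptprz1 are small by their own small spread.

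The genes around the 4 members were put in 8 lists, for other receptors and binding partners, other syndecans and glypicans, extracellular partners of Ptprz1, its substrates and scaffolds, chondroitin and heparan sulfate synthesis, other brain chondroitin sulfate proteoglycans, and syndecan shedding. Of 135 listed genes 129 were measured, and each was tested in limma across all 18193 genes with Benjamini-Hochberg adjustment at 0.05. Against Nf1-null NSC, 2 rose and 2 fell in glioma stem cells, 1.55% in either direction, beside 0.671% higher and 1.08% lower among all genes. Against wild-type NSC, 9 rose (6.98%) and 8 fell (6.20%), beside 3.46% higher and 5.60% lower among all genes. Between the NSC groups none of the 129 passed, nor did any of the 18193 genes (0%), of which the smallest adjusted p was 0.0734 and 3048 had an unadjusted p under 0.05. With a mean-variance trend in limma 329 of all genes and 4 of the 129 passed there. The median log2 difference of the 129 genes was 0.08, 0.15 and 0.03 in the 3 comparisons, beside -0.04, -0.09 and -0.06 over all genes.

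**Figure D4:**
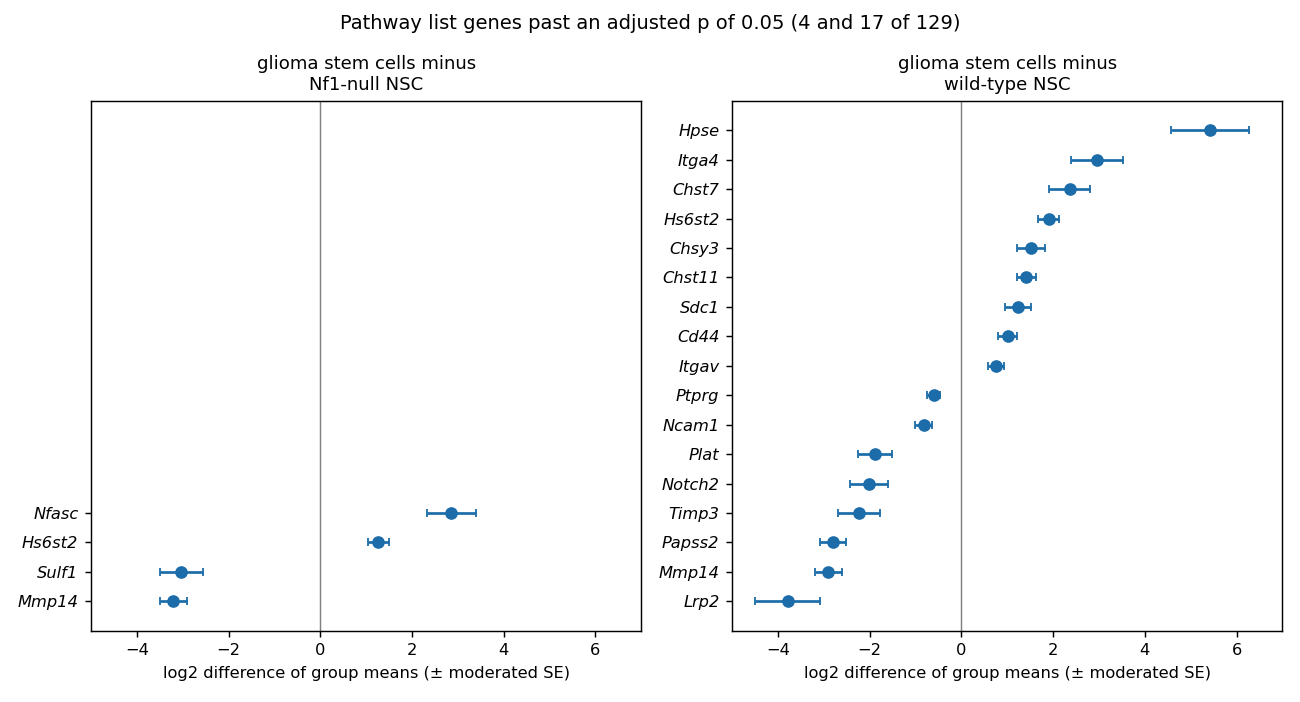
Log2 differences with moderated standard errors of the listed genes that passed an adjusted p of 0.05 in limma, 4 against Nf1-null NSC on the left and 17 against wild-type NSC on the right. Mmp14 and Hs6st2 are in both panels, below and above 0, and Hpse lies farthest to the right.

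Among 20 other receptors and binding partners, none passed against Nf1-null NSC, and 3 rose and 2 fell against wild-type NSC, with a median of 0.04. The endocytic receptor gene Lrp2, which binds midkine, was 13.8-fold lower than in wild-type NSC (log2 -3.79 ± 0.70, adjusted p = 0.0238), at signals of 97.1, 68.9 and 13.4 in glioma stem cells, 259.4 to 481.6 in Nf1-null NSC, against 491.8 to 995.9 in wild-type NSC. Without the dimmest, glioma stem cell array 3, the log2 difference was -2.95 (adjusted p = 0.0374 in limma). A further midkine receptor, Notch2, was 4.05-fold lower (log2 -2.02 ± 0.41, adjusted p = 0.0286). The integrin subunit Itga4, described as part of a midkine-binding integrin, was 7.73-fold higher (log2 2.95 ± 0.57, adjusted p = 0.026), with signals of 1262.8 to 3695.9 in glioma stem cells, 363.6 to 921.6 in Nf1-null NSC, against 184 to 457.8 in wild-type NSC. Itgav, a subunit of the pleiotrophin-binding integrin, also rose (log2 0.75, adjusted p = 0.0405). It is the fifth call of its list, falls outside the rule for named genes and was named after its value was seen.

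Alk, a kinase proposed as a receptor of both ligands, and its relative Ltk had low signals on all arrays. Alk signals were 92.3 to 200.9 in glioma stem cells, 132.4 to 232.5 in Nf1-null NSC, against 37.7 to 177.1 in wild-type NSC, and those of Ltk stayed at or below 146.7. Lrp1, the endocytic receptor that takes up midkine, had log2 differences of 1.14 ± 0.39 against Nf1-null NSC and 0.09 ± 0.39 against wild-type NSC and passed in neither. The cell-surface nucleolin gene Ncl likewise passed in neither, at -0.14 ± 0.24 and 0.29 ± 0.24. Itga6 showed -2.67 ± 0.81 against Nf1-null NSC and -1.80 ± 0.81 against wild-type NSC, with glioma stem cell array 1 at 8393 and arrays 2 and 3 at 1267.3 and 820, and did not pass (adjusted p = 0.163 and 0.207). Without array 1 it passed in both, at -3.68 and -2.82 (adjusted p = 0.01 and 0.0143 in limma), and without array 3 in neither (adjusted p = 0.392 and 0.46). Its partner Itgb1 did not pass either, at 0.25 ± 0.29 and 1.06 ± 0.29 (adjusted p = 0.717 and 0.0633), but passed against wild-type NSC without glioma stem cell array 1 (log2 1.38, adjusted p = 0.0122).

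Of 9 other syndecans and glypicans, none passed against Nf1-null NSC and 1, Sdc1, rose against wild-type NSC. Sdc1, another heparan sulfate carrier of the cell surface, was 2.35-fold higher in glioma stem cells (log2 1.23 ± 0.28, adjusted p = 0.0358). Without glioma stem cell array 1 it did not pass (log2 1.03, adjusted p = 0.0648 in limma). Its signals were 1556.2 to 2638.1 in glioma stem cells, 1403.1 to 2314.4 in Nf1-null NSC, against 692.9 to 1006 in wild-type NSC, and array 1 was the highest of each group here as well. Sdc2 differed by 0.19 ± 0.28 and 0.37 ± 0.28, and Sdc4 by -0.49 ± 0.38 and -0.02 ± 0.38, and neither passed. The medians of the list were 0.16 and 0.19.

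Of 18 extracellular partners of Ptprz1, 1 rose against Nf1-null NSC and 2 fell against wild-type NSC. Nfasc, the cell adhesion gene neurofascin, was 7.27-fold higher than in Nf1-null NSC (log2 2.86 ± 0.53, adjusted p = 0.0481), with 650.7, 2294.6 and 2247.7 in glioma stem cells, 222.5, 180.8 and 214.6 in Nf1-null NSC, against 511.4, 799.7 and 1258.6 in wild-type NSC. Nf1-null NSC were the low group of this gene, and without glioma stem cell array 1 the log2 difference was 3.46 (adjusted p = 0.00799 in limma). Ptprg, the close paralogue of Ptprz1, was 1.52-fold lower than in wild-type NSC (log2 -0.61 ± 0.15, adjusted p = 0.0434), and the neural cell adhesion gene Ncam1 was 1.77-fold lower (log2 -0.82 ± 0.18, adjusted p = 0.0363). Ptprg did not pass without glioma stem cell array 1 (log2 -0.51, adjusted p = 0.075 in limma), nor without any other single array. Cntn1, which encodes the Ptprz1-binding adhesion protein contactin-1, did not pass, at 3.80 ± 0.82 against Nf1-null NSC (adjusted p = 0.0766) and 1.49 ± 0.82 against wild-type NSC. Its signals were 11237.2, 31046.6 and 26678.3 in glioma stem cells, 1310.1, 499.4 and 5259.9 in Nf1-null NSC, against 5341.7, 7667.8 and 10237.4 in wild-type NSC, so the 3 groups did not overlap, with Nf1-null NSC lowest. Without Nf1-null array 3 it passed against Nf1-null NSC (log2 4.70, adjusted p = 0.045), and without Nf1-null array 2 the log2 difference was 3.00 (adjusted p = 0.132).

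Nrcam, a contactin-binding adhesion gene, did not pass, at -0.47 ± 0.20 and -0.70 ± 0.20. Of the tenascins that bind phosphacan, Tnc was at -0.23 ± 0.56 against Nf1-null NSC and 2.13 ± 0.56 against wild-type NSC (adjusted p = 0.879 and 0.0566), passing in the second without Nf1-null array 2 (adjusted p = 0.0378), and Tnr at 2.53 ± 1.22 and -1.78 ± 1.22, or 3.25 and -1.05 without glioma stem cell array 1. Tnr signals spread from 2311.9 down to 130.5 within Nf1-null NSC and from 27735 down to 3279.1 within wild-type NSC. None of the 19 measured genes for Ptprz1 substrates, scaffolds and downstream kinases passed in limma in any comparison.

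Midkine and pleiotrophin bind to sulfated sugar chains, and the enzymes that build and edit these chains include genes that changed in either direction. Of 24 genes of chondroitin and dermatan sulfate synthesis, none passed against Nf1-null NSC, while 3 rose and 1 fell against wild-type NSC, with medians of 0.06 and 0.14. Chst11, a chondroitin 4-O-sulfotransferase, was 2.67-fold higher than in wild-type NSC (log2 1.42 ± 0.20, adjusted p = 0.0128), with 9728.6 to 12628.9 in glioma stem cells, 5542 to 6745.2 in Nf1-null NSC, against 3541.4 to 5342.4 in wild-type NSC. The 6-O-sulfotransferase gene Chst7 was 5.14-fold higher (log2 2.36 ± 0.45, adjusted p = 0.025), and the chain-extending synthase Chsy3, a dim gene, 2.87-fold higher (log2 1.52 ± 0.31, adjusted p = 0.0292). Papss2, which like Papss1 makes the sulfate donor for these reactions, was 6.98-fold lower (log2 -2.80 ± 0.29, adjusted p = 0.00674). Papss1, named outside the rule, was much brighter (mean log2 signal 13.71 against 8.72 for Papss2). It differed by -0.51 against wild-type NSC and -0.05 against Nf1-null NSC and did not pass. Papss2 signals were 150.1 to 223.7 in glioma stem cells, 299.8 to 312.9 in Nf1-null NSC, against 949.9 to 2006.8 in wild-type NSC, so every wild-type array was above all others. Between the NSC groups (Nf1-null minus wild-type) Papss2 differed by -2.09 and did not pass (adjusted p = 0.0825).

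Of 23 genes of heparan sulfate synthesis and editing, 1 rose and 1 fell against Nf1-null NSC and 2 rose against wild-type NSC, with medians of 0.08 and 0.19. Hs6st2, a heparan sulfate 6-O-sulfotransferase, was 2.41-fold higher than in Nf1-null NSC (log2 1.27 ± 0.23, adjusted p = 0.0447) and 3.75-fold higher than in wild-type NSC (log2 1.91 ± 0.23, adjusted p = 0.00953). Its signals were 2399.6, 2713 and 2597.8 in glioma stem cells, 826.5, 1510.8 and 969.6 in Nf1-null NSC, against 697.2, 721.9 and 633.2 in wild-type NSC. Sulf1, an extracellular enzyme that removes such sulfate groups, was 8.15-fold lower than in Nf1-null NSC (log2 -3.03 ± 0.48, adjusted p = 0.0336), at 224.7 to 372.6 in glioma stem cells, 1827.8 to 2491.3 in Nf1-null NSC, against 487.1 to 1875.2 in wild-type NSC. Sulf2 of the same list, also named outside the rule, was much brighter (mean log2 signal 14.78 against 9.65 for Sulf1). It differed by 0.14 against Nf1-null NSC and 0.26 against wild-type NSC and did not pass. Heparanase (Hpse), which cuts the chains, was 42.8-fold higher than in wild-type NSC (log2 5.42 ± 0.84, adjusted p = 0.0162). Its signals were 235.8, 1296.2 and 1770.2 in glioma stem cells, 93, 28.8 and 21.1 in Nf1-null NSC, against 28.1, 17.5 and 11.9 in wild-type NSC. With a pseudocount of 16 the log2 difference was 4.60. Glioma stem cell array 1 was well below arrays 2 and 3, and without it the log2 difference was 6.31 (adjusted p = 0.00539 in limma).

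Among 12 other chondroitin sulfate proteoglycans of brain, none passed against Nf1-null NSC, and Cd44 rose and Ptprg fell against wild-type NSC. Cd44, the hyaluronan receptor, was 2.01-fold higher than in wild-type NSC (log2 1.01 ± 0.21, adjusted p = 0.0319). Its signals were 7044.2 to 8810 in glioma stem cells, 7109.9 to 9976.3 in Nf1-null NSC, against 3302.2 to 4805.2 in wild-type NSC. Nf1-null NSC were thus about as high as glioma stem cells (log2 -0.14 between them). Cspg5, neuroglycan C, had 1.16 ± 0.40 against Nf1-null NSC and 0.44 ± 0.40 against wild-type NSC and did not pass, except against Nf1-null NSC without Nf1-null array 3 (log2 1.67, adjusted p = 0.0418). Of 13 genes of syndecan shedding and cytoplasmic partners, Mmp14 fell in both comparisons. It was 9.20-fold lower than in Nf1-null NSC (log2 -3.20 ± 0.30, adjusted p = 0.00701) and 7.47-fold lower than in wild-type NSC (log2 -2.90 ± 0.30, adjusted p = 0.00674). Its signals were 468.1, 590.2 and 421.5 in glioma stem cells, 3077.4, 4945.5 and 5987.6 in Nf1-null NSC, against 2875, 3686.4 and 4604.8 in wild-type NSC. Its other 2 probe sets also gave log2 differences of -3.70 and -3.06 against Nf1-null NSC and -3.34 and -2.37 against wild-type NSC. Timp3, an inhibitor of sheddases, was 4.69-fold lower than in wild-type NSC (log2 -2.23 ± 0.46, adjusted p = 0.0299), and Plat, tissue plasminogen activator, 3.71-fold lower (log2 -1.89 ± 0.38, adjusted p = 0.0281).

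Most of these calls ended without some single array, though leaving out an array also leaves fewer to estimate the spread. Wild-type arrays enter the comparison with Nf1-null NSC only through that estimate. Without any 1 of them Nfasc stayed at a log2 difference of 2.86 and Hs6st2 at 1.27, yet neither passed. Calls among all genes there fell from 319 to 147, 118 and 155. A lost call thus need not mean that the array carried the difference. In limma, Mmp14 kept its call in both comparisons without any 1 array, as did Papss2 and Hs6st2 against wild-type NSC. Against Nf1-null NSC, Nfasc, Sulf1 and Hs6st2 lost the call on leaving out glioma stem cell array 2 or 3 or Nf1-null array 1 or 3 (adjusted p 0.0881 to 0.165), or wild-type array 1 (0.0617 to 0.0807). Leaving out Nf1-null array 2 ended the calls of Nfasc and Sulf1 (0.0801 to 0.129), and wild-type array 2 or 3 those of Nfasc and Hs6st2 (0.065 to 0.0909). Leaving out glioma stem cell array 1 ended that of Hs6st2 (0.0509). The mean of all probe sets ended the calls of Nfasc and Hs6st2 (0.0548 to 0.126), as did a fit of the 6 arrays compared (0.118 to 0.14), and quantile normalization that of Hs6st2 (0.0535). With the replicate number as a block, 193 of all genes and 1 of the 129, Mmp14, passed in that comparison, and the adjusted p was 0.0558 for Nfasc, 0.0659 for Sulf1 and 0.0614 for Hs6st2.

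Against wild-type NSC, 13 of 16 named genes lost the call without glioma stem cell array 2 (adjusted p 0.0568 to 0.112) and 13 without wild-type array 2 (0.0503 to 0.124). The number was 12 without glioma stem cell array 3 (0.0529 to 0.116) and 12 without wild-type array 3 (0.0523 to 0.0995). It was 8 without wild-type array 1 (0.0539 to 0.114), and 2 without glioma stem cell array 1 (0.0648 to 0.075) or any 1 Nf1-null array (0.051 to 0.0677). Every such loss kept the direction. With the mean of all probe sets, the calls of Notch2, Sdc1, Ncam1, Ptprg, Chsy3, Hs6st2 and Cd44 ended (0.0599 to 0.66, the last for Cd44), and 9 calls ended in a fit of only the 6 arrays compared (0.0522 to 0.0807). Shifting the arrays to 1 median ended those of Ncam1 and Ptprg (0.0528 to 0.0606). Without glioma stem cell array 1, the array that stood apart, 24 of the 129 genes passed against wild-type NSC and 11 against Nf1-null NSC.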

How the data were processed

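RNA of 9 cultures was measured on Affymetrix Mouse Genome 430 2.0 arrays from 100 ng of total RNA each, labelled as biotinylated cRNA, per the labels' protocols. The values are linear probe set intensity values as deposited by the authors, by a tool not given in the sources used here. The mean intensity, trimmed by 2% of probe sets at each end, was 1500 on every array, so differences in total RNA are not seen. Of 45101 probe sets, 64 were controls and 34945 had 1 gene symbol in the platform annotation, 932 several and 9160 none. The brightest probe set by mean over the 9 arrays stood for a gene with several, which held for 9010 of 18193 genes.

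Values were turned into log2(value + 1). A fit of the 3 group means over the 9 arrays was made with limma 3.58.1 under R 4.3.3, moderated by eBayes without trend (6 residual and 1.63 prior degrees of freedom), two-sided, and Benjamini-Hochberg adjustment over all genes at 0.05. Standard errors of the 4 members come from the same model over all 45037 probe sets other than controls. Folds were taken back from log2 differences, which understates changes of dim genes. Precision is limited by 3 arrays per group.

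The members and the gene lists were chosen with earlier results of these data known. The rule for named genes took every member probe set, up to 4 genes with the smallest adjusted p per list and comparison, 15 known partners whatever their values, and the 5 genes nearest to each member in pattern. Deviations from group means across the brighter genes correlated at 0.64, 0.24 and 0.59 for same-numbered Nf1-null and wild-type NSC arrays, so the numbers pair the NSC by these data, though the labels do not say so. For glioma stem cells the values were 0.30, 0.12 and 0.11 with Nf1-null NSC, just above 0.1 and reached at 0.11 by a differently numbered pair, and 0.24, 0.05 and 0.20 with wild-type NSC. The replicate block was run as an alternative. Alternatives were quantile normalization, a median shift, other probe set summaries, filters and variance priors, a pseudocount of 16, array weights, 6-array fits and each array left out. The model was tested on simulated arrays. Promoter sequences are from RefSeq, and figures were drawn with matplotlib 3.10.9.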

Additional observations from a re-analysis of the deposited data

How the results depend on the processing

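Of 180 alternative values of the 12 member differences, 172 moved by less than the spread between replicates. The exceptions were Ptn and Ptprz1. Part of the 172 could not move. The replicate block is balanced over the groups, and an array left out of the third group does not enter the difference. With the mean of all probe sets, Ptn gave -0.19, -0.42 and -0.23 in glioma stem cells against Nf1-null NSC, glioma stem cells against wild-type NSC and Nf1-null against wild-type NSC, and Ptprz1 gave -0.05 in the second. Ptn against wild-type NSC gave -0.11 for glioma stem cells and -0.04 for Nf1-null NSC with quantile normalization, and -0.13 and -0.01 with arrays shifted to 1 median. Counts of calls, given for all genes and then for the 129 listed genes, depended on the setting, and the causes were not tested. Against Nf1-null NSC (319 and 4), they were 149 and 2 with the mean of all probe sets, 536 and 8 without the dimmest 25% of genes, and 607 and 9 in the brighter part of the genes. They were 737 and 12 with a mean-variance trend, 773 and 13 with robust moderation as well, 29 and 2 from only the 6 arrays compared, 193 and 1 with the replicate block, and 973 and 14 with array weights. A pseudocount of 16 gave 7 listed genes, and single arrays left out gave 72 to 721 and 1 to 11. Against wild-type NSC (1649 and 17), the mean of all probe sets gave 1083 genes, and the filter on the dimmest genes 2488 and 26. The brighter part of the genes gave 26 listed genes, the trend 2680 and 31, the robust trend 2767 and 33, 6 arrays 1030 and 9, and array weights 3515 and 38. Single arrays left out gave 214 to 1756 and 3 to 24, and the replicate block 1536 and 16, with 5 of 16 named calls ended (Itga4, Ptprg, Chsy3, Cd44 and Plat, adjusted p 0.0543 to 0.0669 in limma). Between the NSC groups (0 and 0), the filter gave 136 and 2, the brighter part of the genes 398 and 4, the trend 329 and 4, and the robust trend 378 and 4, with 0 to 1 genes on leaving out single arrays and 0 with the replicate block. With arrays shifted to 1 median, 47.4% of all calls against wild-type NSC were higher, beside 38.2%. Among named genes without a call, signs turned as follows against Nf1-null NSC. Ncl was 0.01 with the mean of all probe sets, and Ltk 0.01 with a pseudocount of 16 and 1.05 with array weights. With single arrays left out, Ltk ranged over -1.11 to 0.64, Alk over -0.44 to 0.12, Ncl over -0.30 to 0.06, Sdc1 over -0.04 to 0.36 and Tnc over -0.56 to 0.29. Against wild-type NSC, Sdc4 was 0 with quantile normalization, 0.05 with the median shift and 0.13 with array weights, and Lrp1 was 0 with the mean of all probe sets. With single arrays left out, Sdc4 ranged over -0.32 to 0.17 and Lrp1 over -0.17 to 0.31. Detection calls were not used here, so low signals such as those of Alk, Ltk and Hpse in NSC were not set against background.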
